A study of Mus musculus with 7 samples.

Results

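Enzymes and remodellers that write, erase and read marks on histones and DNA were examined in mouse glioma cells passaged from brain to brain. A gene entered the group when a probe with a single symbol matched a fixed set of family names: histone deacetylases (Hdac), lysine demethylases (Kdm), SET domain proteins (Setd), Polycomb and heterochromatin proteins, CHD and SMARC remodellers, DNA methyltransferases (Dnmt) and TET dioxygenases. The Y-linked Kdm5d was left out. This gave 80 genes of the 18193 with such a probe, and each gene was read by its brightest probe, averaged over the 7 arrays. Of the 80, 78 passed the filter on dim probes, a mean log2 value of 3.99, and were tested among 14453 genes. The other 2, the remodeller Smarca1 and the demethylase Kdm4d, had group means of 2.25 and 2.94 (Smarca1) and 3.36 and 3.28 (Kdm4d) in secondary and tertiary gliomas, with groups that overlapped.

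All samples were glioma cells of C57/Bl6 background carrying PDGF-B/EGFP overexpression, grown in NOD/SCID hosts, which lack functional lymphocytes. Secondary gliomas (n = 4) arose from grafted cells of early onset, low grade primary tumours, and tertiary gliomas (n = 3) from grafted cells of a secondary glioma. EGFP-positive cells were sorted by flow cytometry in both groups, and mRNA was measured on Affymetrix arrays as log2 values. The labels call the samples biological replicates without naming the donor tumour or host of each, so p-values measure the spread between these samples only. Neither the cells in which PDGF-B was first expressed nor a normal brain control is part of the comparison. The arrays compare each gene with itself between samples, and no gene's level is set against that of another.

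DNA in the nucleus is wrapped around histones, and access to it depends on chemical marks and on how tightly nucleosomes are packed. Methyltransferases and deacetylases set or remove marks that silence or activate genes, demethylases and TET enzymes undo methylation, and remodellers such as the SWI/SNF complex use ATP to slide or evict nucleosomes. In gliomas these systems are known targets of mutation and of drugs, the Polycomb methyltransferase EZH2 among them.

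The sorted cells kept the markers of oligodendrocyte precursors. The mean of 11 such markers lay between 9.73 and 10.2 in secondary and between 9.86 and 10.2 in tertiary gliomas on the log2 scale, and none was called. Markers of microglia and macrophages were lower in tertiary gliomas in 18 of 18 cases, with a list mean from 9.90 to 10.7 in secondary and from 5.76 to 6.58 in tertiary gliomas and 2 tertiary means below the dim filter. Of 7 mature oligodendrocyte markers 3 were called lower. Their log2 fold changes ran from -2.62 (Ermn) to -0.39 (Cldn11), with a median of -2.06. In such bulk samples fewer cells of a type and less RNA per cell cannot be told apart. The tertiary gliomas differed among themselves: the mean of 9 proliferation markers was 6.99 in tertiary glioma 1, but 9.32 and 9.31 in tertiary gliomas 2 and 3, and 7.27 to 8.14 in secondary gliomas. Tertiary glioma 1 also had the lowest of limma's array weights (0.382), followed by secondary glioma 3 (0.471).

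The comparison asks whether this machinery changes in expression on a further transplant. Of the 78 genes tested 1 was called, the SWI/SNF subunit Smarcd2, which was lower in tertiary gliomas (limma, adjusted p under 0.05 over all genes tested). That is 1.28% of the members, where 7.38% of all genes tested were called, 6.33% lower and 1.04% higher. At an unadjusted p under 0.05 there were 5 members lower and 10 higher, or 19.2%, against 23.8% of all genes. Groups were fully apart in 13 members (16.7%; 21.9% of all genes), 4 with every tertiary glioma lower (11.2% of all genes) and 9 with every tertiary glioma higher (10.8%).

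Changes were small across the members. The median log2 fold change, tertiary minus secondary, was 0.17 over the 78 members and 0.09 over all genes tested, and 55 members (70.5%) lay above 0, as did 60.6% of all genes. Only Smarcd2 and Ezh2 differed by 1 or more on the log2 scale, 2.56% of the members against 8.82% of all genes. For 59 members (75.6%) the 95% interval of the difference stayed within 1 log2 unit of 0, as it did for 68.3% of all genes. For the remaining 19 the interval reached past 1 unit, so a change of 2-fold was not excluded by these arrays.

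**Figure D1:**
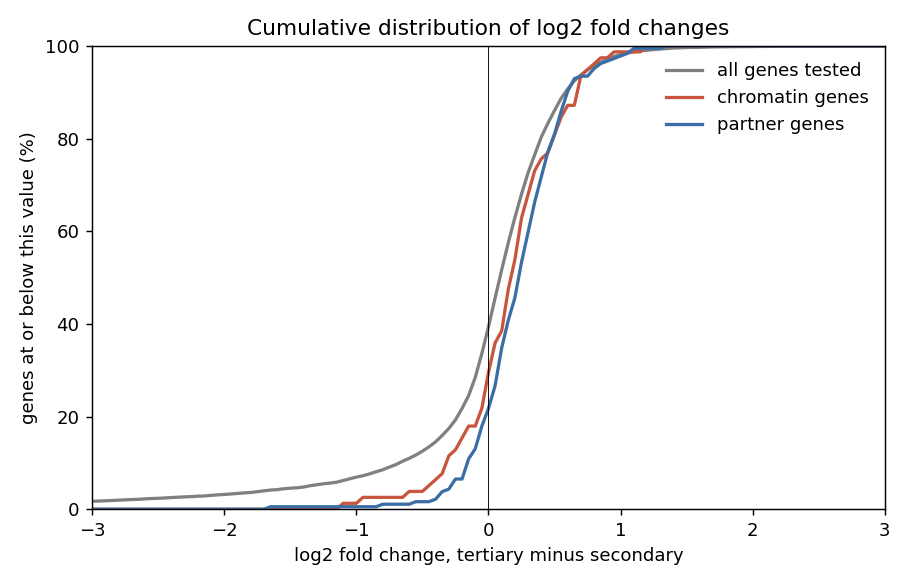
Cumulative share of genes (percent, vertical axis) at or below each log2 fold change, tertiary minus secondary (horizontal axis, shown from -3 to 3), for all 14453 genes tested, the 78 chromatin genes and 184 partner genes of the same complexes. The curve of all genes has a tail of falls below -1 that the other curves hardly have, with members between -1.10 and 1.19.

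SWI/SNF complexes are built from an ATPase (Smarca2 or Smarca4) and a core of Smarcb1, Smarcc, Smarcd and Smarce1 subunits, and which of the Smarcd paralogues is built in differs between cell types. Smarcd2, a paralogue known for its part in the maturation of granulocytes, read 8.66, 8.98, 9.08 and 8.59 in the secondary and 7.25, 8.03 and 7.89 in the tertiary gliomas. Every tertiary value lay below every secondary value, and tertiary glioma 1 was the lowest. The log2 fold change was -1.10 ± 0.22 (SE, n = 4 and 3; limma adjusted p = 0.0241), from 8.83 ± 0.24 (SD) to 7.72 ± 0.41. Its other 2 probes gave -0.88 and -0.34. With the probes averaged the fold change was -0.77, with an adjusted p of 0.0547. The call was also lost without secondary glioma 2 (adjusted p = 0.0727), secondary glioma 3 (0.0633) or tertiary glioma 3 (0.0609). In these 3 tertiary gliomas the microglial markers stood at a median log2 fold change of -4.21, and their part in the Smarcd2 result was not tested.

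The other SWI/SNF genes lay mostly above 0 without passing the test. Of 12 SMARC genes tested 10 had a positive fold change, with a class median of 0.47. The related helicase Smarcad1, which acts on chromatin during DNA repair and replication, read 6.53, 7.03, 6.82 and 7.12 in secondary and 7.41, 7.79 and 7.60 in tertiary gliomas. Its groups did not overlap, and the difference was 0.72 ± 0.18 (SE, n = 4 and 3; limma adjusted p = 0.0544), just outside the threshold. Its other probe gave 0.19, and the mean of both gave 0.46 (adjusted p = 0.0954). A stricter dim filter, at the 50th percentile, brought the adjusted p to 0.0495, whereas it was 0.189 without tertiary glioma 2. The core subunit Smarcb1 also had groups that did not overlap, with secondary values from 8.52 to 8.80 and tertiary values of 9.03, 9.09 and 9.45 (0.53 ± 0.15, limma adjusted p = 0.0852). Its other 2 probes gave 0.21 and 0.02, and the mean of all 3 gave 0.25 (adjusted p = 0.224).

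Smarcd1, the paralogue of Smarcd2 common in neural progenitors and other cells, differed by 0.68 ± 0.23 (limma adjusted p = 0.128), and Smarcd3, found in mature neurons and muscle, by 0.57 ± 0.28 (0.255). Smarcd3 had groups that did not overlap, whereas those of Smarcd1 shared the value of 6.86. The scaffold Smarcc1 differed by 0.82 ± 0.36 (0.219) and the DNA-binding subunit Smarce1 by 0.66 ± 0.23 (0.130). Of the ATPases, Smarca4 (BRG1) differed by 0.22 ± 0.13 (0.352), with a 95% interval from -0.09 to 0.53. Smarca2 (BRM) differed by -0.43 ± 0.32 (0.448). Its secondary values were close together, between 9.04 and 9.18, and its tertiary values were 9.24, 7.79 and 8.98, with tertiary glioma 2 the lowest. Its other probe gave -0.40, with tertiary values of 8.57, 8.17 and 8.82 and secondary values from 8.82 to 8.99, so that tertiary glioma 1 was low there as well.

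**Figure D2:**
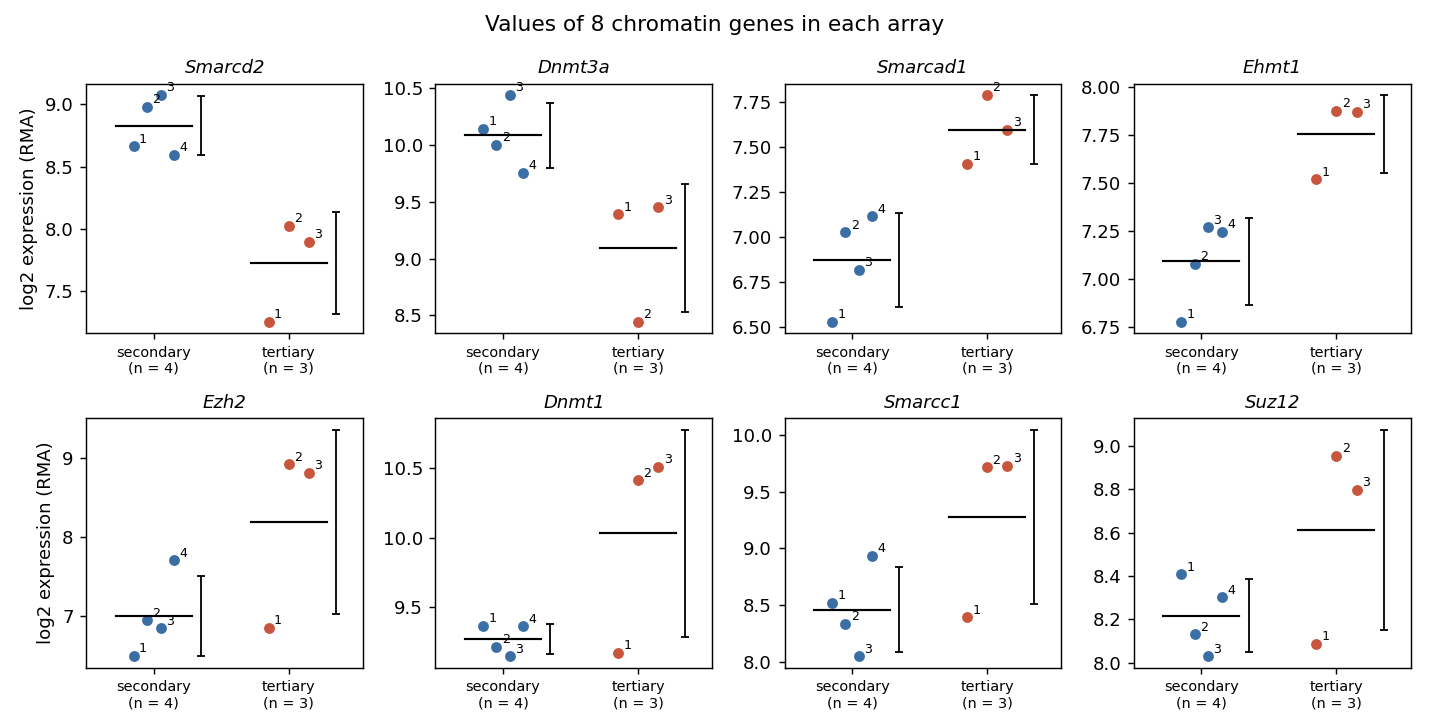
Log2 expression (vertical axes, not starting at 0) of 8 chromatin genes in the 4 secondary and 3 tertiary gliomas; points are arrays, numbered by replicate, with the group mean (line) and SD (bar). Each gene is shown by its brightest probe. In the upper row the groups do not overlap for that probe. In the lower row tertiary glioma 1 lies among the secondary gliomas and tertiary gliomas 2 and 3 lie above them.

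DNA methyltransferases went in both directions. Dnmt3a, which sets new methylation marks, read 10.1, 10.00, 10.4 and 9.76 in secondary and 9.39, 8.44 and 9.45 in tertiary gliomas. Each tertiary value was below each secondary value, with tertiary glioma 2 the lowest. The difference was -0.99 ± 0.28 (SE, n = 4 and 3) with a limma adjusted p of 0.0810, and all 5 of its probes were negative, from -0.99 to -0.56. In the probes other than the one used, however, the groups overlapped, with tertiary glioma 3 among or above the secondary gliomas. It read 8.70 against 8.48 to 9.13 in 1 of them and 8.53 against 7.72 to 8.49 in another. Dnmt1, which copies methylation to the new strand after replication, read 9.36, 9.21, 9.14 and 9.36 in secondary and 9.17, 10.4 and 10.5 in tertiary gliomas. Tertiary glioma 1 lay among the secondary gliomas, and tertiary gliomas 2 and 3 lay about 1 log2 unit above them. The difference was 0.76 ± 0.31 (limma adjusted p = 0.194), and its 3 probes agreed in sign.

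Dnmt3b, the other de novo enzyme, and Dnmt3l, a cofactor without activity of its own, differed by -0.01 ± 0.40 and 0.18 ± 0.15. The TET dioxygenases oxidise methylated cytosine. Tet1 differed by -0.01 ± 0.41 (limma adjusted p = 0.990), with tertiary values of 5.08, 5.33 and 6.77. Tertiary glioma 3 was above all the other samples, and 3 of its 4 probes had a positive sign. Tet2 differed by -0.01 ± 0.19 and Tet3 by -0.35 ± 0.19 (0.316). The intervals were -0.96 to 0.93 for Tet1 and -0.44 to 0.42 for Tet2.

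Polycomb repressive complex 2 methylates lysine 27 of histone H3 through Ezh2 or Ezh1, held by Suz12 and Eed. Ezh2, the form of dividing cells, read 6.50, 6.95, 6.85 and 7.71 in secondary and 6.86, 8.92 and 8.81 in tertiary gliomas. Tertiary gliomas 2 and 3 stood above all others, whereas tertiary glioma 1 lay among the secondary gliomas. The difference of 1.19 ± 0.52 (SE, n = 4 and 3; limma adjusted p = 0.214) was the largest among the members and had an interval from -0.02 to 2.40. Suz12 had the same shape, with secondary values from 8.03 to 8.41 and tertiary values of 8.09, 8.95 and 8.80 (0.39 ± 0.22, adjusted p = 0.326). Other Suz12 probes gave 0.41, 0.27, 0.11 and 0.08, and the mean of all probes gave 0.23 (limma adjusted p = 0.530). Ezh1, the form of resting cells, differed by -0.33 ± 0.24 (0.442), and Eed by -0.26 ± 0.20 (0.448). Other Ezh1 probes disagreed in sign, at -0.62 and 0.30. In the former the groups did not overlap, with secondary values from 5.94 to 6.74 and tertiary values of 5.80, 5.74 and 5.42.

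The CBX proteins read methylated histones, some in Polycomb repressive complex 1 and some as heterochromatin protein HP1. Cbx2 of the Polycomb branch read 5.36, 4.78, 5.33 and 5.33 in secondary and 5.61, 5.97 and 6.07 in tertiary gliomas. The groups did not overlap, and the difference was 0.68 ± 0.20 (limma adjusted p = 0.0863). Cbx8 differed by 0.53 ± 0.30, Cbx7 by 0.18 ± 0.17 and Cbx6 by -0.09 ± 0.19. Among the HP1 genes Cbx5 differed by 0.45 ± 0.17 (limma adjusted p = 0.170), with tertiary gliomas 2 and 3 at 9.74 and 9.78 and the other arrays between 9.02 and 9.34. Cbx3 and Cbx1 differed by 0.32 ± 0.15 and 0.28 ± 0.24.

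Among the histone methyltransferases outside Polycomb none was called. Ehmt1 (GLP), which with Ehmt2 (G9a) places the repressive mark on lysine 9 of histone H3, read 6.78, 7.08, 7.27 and 7.25 in secondary and 7.52, 7.88 and 7.87 in tertiary gliomas. The groups did not overlap, and the difference was 0.66 ± 0.17 (SE, n = 4 and 3; limma adjusted p = 0.0633). Ehmt2 differed by 0.24 ± 0.22. Setd6, which methylates the NF-kappaB subunit RelA, read 8.12, 9.18, 8.08 and 8.55 in secondary and 9.30, 9.60 and 9.27 in tertiary gliomas. The difference was 0.91 ± 0.28 (limma adjusted p = 0.0997), and without secondary glioma 2, its highest secondary value, it was 1.14 with an adjusted p of 0.0204. In the other fits without 1 sample it lay between 0.78 and 0.97, with adjusted p from 0.107 to 0.282, and the mean of its probes gave 0.61 (0.0666). The writers of marks on transcribed genes stayed close to 0, with Nsd1 at 0.09 ± 0.14 (0.735), Setd2 at 0.03 ± 0.17 and Dot1l at 0.01 ± 0.25. The COMPASS enzymes Setd1a and Setd1b were at 0.24 ± 0.15 and -0.16 ± 0.12, and Setd5 at 0.15 ± 0.14.

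Histone deacetylases, the targets of inhibitors used against some cancers, did not pass the test in any class. The class I enzymes, which work inside nuclear repressor complexes, lay above 0 in 4 of 4 cases with a median of 0.42. Hdac2 read 10.1, 9.95, 9.69 and 10.8 in secondary and 10.3, 10.8 and 11.3 in tertiary gliomas. The groups overlapped, and the difference was 0.69 ± 0.32 (SE, n = 4 and 3; limma adjusted p = 0.241) with an interval from -0.06 to 1.43. Other Hdac2 probes gave 0.59 and 0.88. In the latter, a dimmer probe, the groups did not overlap, with secondary values from 5.47 to 6.34 and tertiary values of 6.91, 6.41 and 6.71. Hdac1 differed by 0.28 ± 0.24 (0.517, interval -0.28 to 0.85), Hdac3 by 0.20 ± 0.15 and Hdac8 by 0.56 ± 0.27.

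The class IIa enzymes shuttle between nucleus and cytoplasm. Hdac4 differed by 0.15 ± 0.14 (limma adjusted p = 0.557), Hdac5 by -0.04 ± 0.14, Hdac7 by 0.24 ± 0.30 and Hdac9 by 0.11 ± 0.37. In Hdac7 the tertiary values were 7.77, 6.58 and 7.03 and in Hdac9 they were 8.54, 7.22 and 7.74, so that in both tertiary glioma 1 was the highest of all 7 samples. The tubulin deacetylase Hdac6 differed by 0.25 ± 0.24 (0.572) and Hdac10 by 0.11 ± 0.13. Hdac11, the class IV enzyme of oligodendrocytes and other cells, differed by -0.20 ± 0.30 (0.730), with tertiary values of 6.76, 5.41 and 6.14.

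Of 16 lysine demethylases tested none was called, 9 lay above 0 and the class median was 0.05. Kdm3a, which removes methyl groups from lysine 9 of histone H3 and is induced by hypoxia, read 6.87, 7.15, 7.10 and 7.35 in secondary and 7.42, 7.71 and 7.77 in tertiary gliomas. These groups did not overlap, at a difference of 0.51 ± 0.16 (SE, n = 4 and 3; limma adjusted p = 0.109). Kdm7a and Kdm6b, both able to erase lysine 27 methylation, lay on the other side. Kdm7a read 8.19, 8.32, 8.90 and 8.19 in secondary and 7.65, 7.59 and 8.03 in tertiary gliomas (-0.64 ± 0.21, limma adjusted p = 0.127). Kdm6b, known to be induced in stimulated macrophages, had secondary values from 8.76 to 9.25 and tertiary values of 8.32, 8.67 and 8.63 (-0.45 ± 0.17, 0.165). On the probes used, every tertiary value was below every secondary value in both genes. The other Kdm7a probes ranged from -0.73 to -0.06, some with groups that overlapped. The other Kdm6b probes gave -1.30 and -0.37, and in the latter the groups overlapped. Microglia and macrophage markers moved the same way in these samples, and their part was not tested.

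Kdm1a (LSD1), the flavin-dependent eraser of lysine 4 methylation, differed by 0.45 ± 0.23 (limma adjusted p = 0.281). The X-linked demethylases Kdm6a and Kdm5c differed by -0.31 ± 0.14 and -0.01 ± 0.18, and their probes disagreed in sign (2 of 4 and 3 of 7 as the probe used). The other demethylases lay between -0.23 (Kdm2a) and 0.38 (Kdm4c).

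The CHD remodellers lay between -0.36 (Chd9) and 0.47 (Chd5). None of 9 was called, 8 were above 0 and the median was 0.22. Chd9 was the exception in sign, at -0.36 ± 0.15 (SE, n = 4 and 3; limma adjusted p = 0.207), with secondary values of 9.75 to 10.0 and tertiary values of 9.80, 9.46 and 9.40. Chd7, which opens enhancers in oligodendrocyte precursors, differed by 0.05 ± 0.19 (0.906, interval -0.39 to 0.49). Chd4, the ATPase of the NuRD repressor complex, differed by 0.14 ± 0.12 and Chd8 by 0.00 ± 0.15. The other probes of Chd4 gave 0.18 and 0.56. In the last the groups did not overlap, with secondary values from 7.68 to 7.80 and tertiary values of 8.02, 8.48 and 8.41. Chd5, a neuronal NuRD ATPase, differed by 0.47 ± 0.42, with a value of 8.69 in tertiary glioma 1 and of 7.09 and 7.22 in the other tertiary gliomas.

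**Figure D3:**
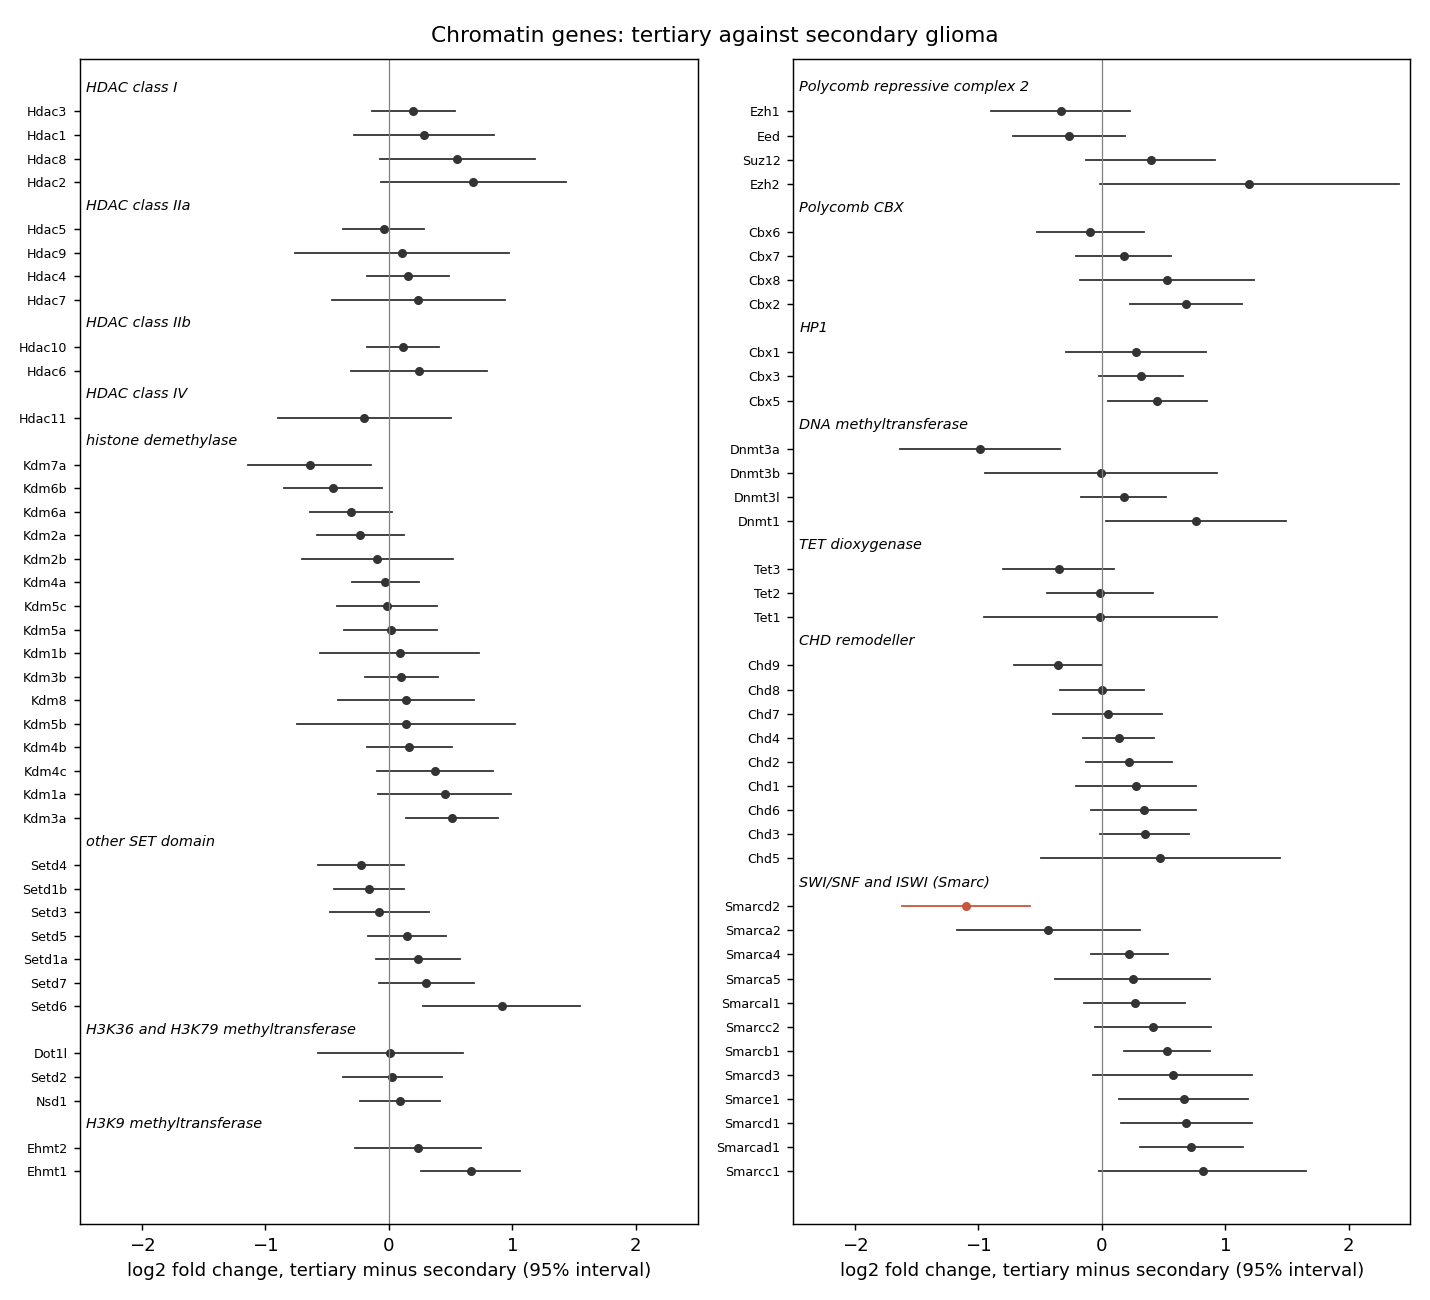
Log2 fold change, tertiary minus secondary (horizontal axes), with its 95% interval for the 78 chromatin genes tested, grouped by enzyme class. Smarcd2 at -1.10 is the single gene called (red), Ezh2 at 1.19 has the widest interval, and most other points lie within 0.5 of 0.

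The number of called members depended most on tertiary glioma 1 among the samples left out. The comparison was refitted 7 times, leaving out each sample once. Without tertiary glioma 1, 9 of 78 members were called higher (11.5%; 5.40% of all genes) and Smarcd2 stayed lower (1.28%; 7.44% of all genes called lower). Without tertiary glioma 2 or 3 no member was called higher by limma (0.187% and 0.298% of all genes; 4.29% and 4.22% were called lower). Without secondary glioma 2 Setd6 was called higher, and the share of all genes was not counted there. The 9 genes were Dnmt1 (log2 fold change 1.19 ± 0.14 SE, n = 4 and 2, limma adjusted p = 0.00298), Ezh2 (1.86 ± 0.32), Smarce1 (0.93 ± 0.16), Smarcc1 (1.26 ± 0.25), Ehmt1 (0.78 ± 0.18), Cbx5 (0.62 ± 0.14), Smarcad1 (0.82 ± 0.20), Suz12 (0.66 ± 0.16) and Cbx2 (0.82 ± 0.20). Array weights keep all samples but count tertiary glioma 1 least. With them 8 members were called higher (10.3%; 4.62% of all genes), 6 of them among these 9, and Smarcd2 lower (8.75% of all genes). Ezh2, Smarcc1 and Suz12 were not called with array weights (limma adjusted p = 0.0586, 0.0604 and 0.0760).

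These genes were called in the fit without tertiary glioma 1, so their height in tertiary gliomas 2 and 3 follows from that choice. On the probes used they were of 2 kinds by where tertiary glioma 1 lay. Cbx2, Ehmt1 and Smarcad1 were higher in tertiary glioma 1 than the secondary mean as well, by 0.41, 0.43 and 0.53. Ezh2, Dnmt1, Smarcc1, Suz12, Smarce1 and Cbx5 stood in tertiary glioma 1 at -0.14, -0.10, -0.07, -0.13, 0.13 and 0.10 from the secondary mean, whereas the mean of tertiary gliomas 2 and 3 was 1.86, 1.19, 1.26, 0.66, 0.93 and 0.62 above it. Other probes did not always keep this split. Tertiary glioma 1 read 4.17 against a secondary mean of 4.44 in another Cbx2 probe, and 8.67 against 8.43 in another Smarcc1 probe. Over the members as a whole, tertiary glioma 1 differed from the secondary mean by a median of 0.01. For tertiary gliomas 2 and 3 the medians were 0.18 and 0.24. Over all genes tested these medians were 0.06, 0.06 and 0.06.

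Tertiary glioma 1 had the lowest of the 3 tertiary values in 44 members (56.4%) and the highest in 17 (21.8%), against 39.0% and 37.3% of all genes tested. Measured from the mean of tertiary gliomas 2 and 3, it was lower by 1 log2 unit or more in Ezh2, Smarcc1, Dnmt1 and the ISWI ATPase Smarca5 (-2.01, -1.32, -1.29 and -1.04), and higher by that much in Chd5 and Hdac9 (1.54 and 1.06). With 1 sample on one side these differences have no test. Markers of several kinds moved with them. Mki67, a proliferation marker, read 9.21 in tertiary glioma 1 and 10.9 and 11.3 in the other tertiary gliomas, and Top2a read 6.47, 9.34 and 9.53. The mean of 8 astrocyte markers was higher in tertiary glioma 1, at 7.83, than in tertiary gliomas 2 and 3, at 6.66 and 6.74. Single markers of other cells also stood higher there, measured from the mean of the other tertiary gliomas: the myelin gene Mbp by 2.43, the astrocyte water channel Aqp4 by 2.56 and the neuronal genes Gad1 and Snap25 by 1.32 and 1.23. The astrocyte marker Gfap stood at -0.67, and the other astrocyte markers between 0.28 (Aldh1l1) and 2.09 (S100b). Of the other myelin genes, Ermn and Mobp stood at 2.55 and 2.37 and Cldn11 at -2.68. Mag, Cnp and Mog stood at 0.09, 0.08 and -0.34. The other neuron markers tested lay between -0.66 (Tubb3) and 0.08 (Stmn2). Over the 7 mature oligodendrocyte markers the mean was 7.41 in tertiary glioma 1 and 6.83 and 6.71 in tertiary gliomas 2 and 3. The mean of the 7 neuron markers was 7.11 in tertiary glioma 1 and 6.91 and 6.80 in tertiary gliomas 2 and 3. The part of these markers in the chromatin results was not tested.

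**Figure D4:**
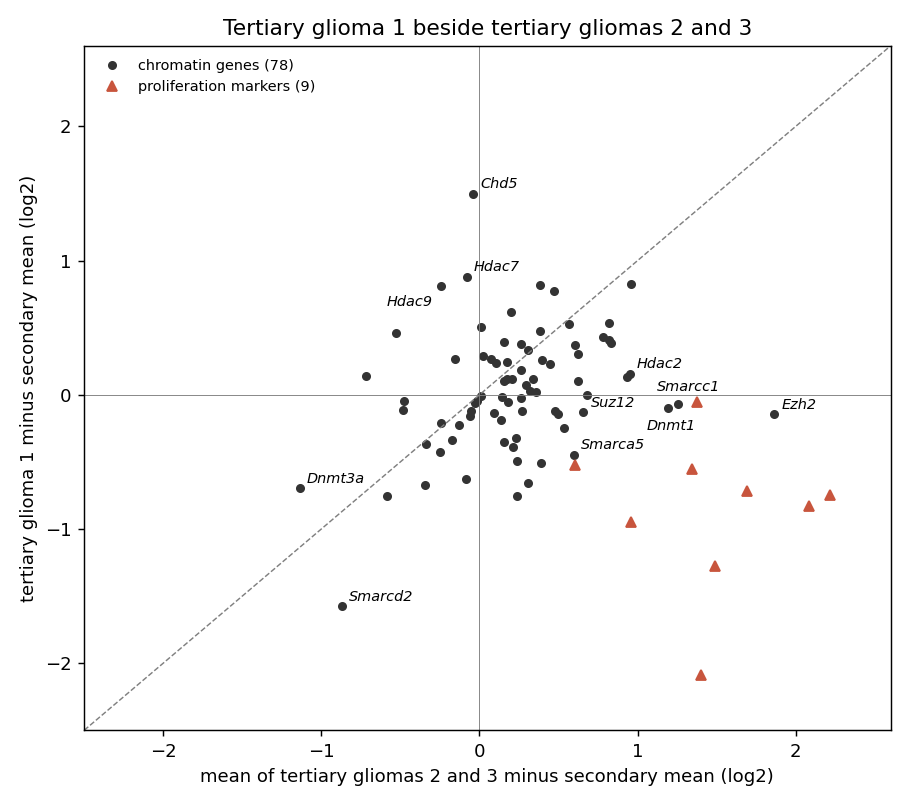
Each point is a gene; the horizontal axis is the mean of tertiary gliomas 2 and 3 minus the secondary mean and the vertical axis is tertiary glioma 1 minus the secondary mean, both in log2 units, with the dashed line marking equality. Ezh2, Dnmt1 and Smarcc1 lie to the right at a vertical value near 0, towards the side of the 9 proliferation markers (triangles), whereas Smarcd2 and Dnmt3a are low on both axes.

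Promoter sequences are shown for Smarcd2, the called gene, and for Ezh2, Smarcc1 and Suz12, genes with a single listed start that were high together in tertiary gliomas 2 and 3. The last 3 were chosen after their values were seen. Each is the 250 bases before the gene's start from RefSeq, build GRCm38.p6, written 5′ to 3′ along the gene. They lie at chr11:106267633-106267882 (minus strand), chr6:47595031-47595280 (minus strand), chr9:110131774-110132023 (plus strand) and chr11:79992856-79993105 (plus strand). Capitals mark matches on either strand to CCAAT, the box bound by NF-Y, to GAGGAA, a core bound by ETS factors, and to TTCCCGC, a form of the E2F site that was added after the values were seen.
Smarcd2: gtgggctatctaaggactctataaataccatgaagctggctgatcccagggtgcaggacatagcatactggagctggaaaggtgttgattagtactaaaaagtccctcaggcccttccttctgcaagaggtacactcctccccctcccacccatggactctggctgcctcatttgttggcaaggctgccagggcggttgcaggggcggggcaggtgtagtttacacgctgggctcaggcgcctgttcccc
Ezh2: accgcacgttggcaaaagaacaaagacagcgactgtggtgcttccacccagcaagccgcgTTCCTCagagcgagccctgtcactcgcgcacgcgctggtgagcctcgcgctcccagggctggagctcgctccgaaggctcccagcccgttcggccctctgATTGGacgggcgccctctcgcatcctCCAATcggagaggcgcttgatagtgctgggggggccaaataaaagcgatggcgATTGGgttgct
Smarcc1: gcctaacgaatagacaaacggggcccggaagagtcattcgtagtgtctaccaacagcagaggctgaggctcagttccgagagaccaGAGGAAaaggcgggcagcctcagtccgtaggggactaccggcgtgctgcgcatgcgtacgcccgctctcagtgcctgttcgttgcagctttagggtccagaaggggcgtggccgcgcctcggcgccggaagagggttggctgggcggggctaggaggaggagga
Suz12: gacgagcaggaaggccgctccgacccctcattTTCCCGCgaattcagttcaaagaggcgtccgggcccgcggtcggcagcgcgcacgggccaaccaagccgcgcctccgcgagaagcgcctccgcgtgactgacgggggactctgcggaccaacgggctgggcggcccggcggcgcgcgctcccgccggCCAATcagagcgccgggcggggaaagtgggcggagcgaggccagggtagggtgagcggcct
The Smarcd2 window held none of the 3 motifs and 4 CG pairs. The Ezh2 window held 3 CCAAT boxes, 1 GAGGAA core and 23 CG pairs. The Smarcc1 window held 1 GAGGAA core and 21 CG pairs, and the Suz12 window 1 CCAAT box, 1 TTCCCGC site and 37 CG pairs. No match overlapped another in these windows. Among all 32851 RefSeq promoter windows of this length 33.8% held CCAAT, 23.3% GAGGAA and 3.82% TTCCCGC. Among the 88 windows of 64 member genes that were listed the shares were 33.0%, 21.6% and 3.41%. The median number of CG pairs was 20 in the members' windows and 6 in all windows.

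Other genes of the same complexes and activities were read from 13 lists, which held 202 genes outside the group, of which 184 were tested. Of these 1 was called lower (0.543%; 6.33% of all genes) and none higher by limma (1.04% of all genes). At an unadjusted p under 0.05, 2 were lower (1.09%; 11.7% of all genes) and 40 higher (21.7%; 12.1%), and the median log2 fold change was 0.24. The called gene was Gadd45b, a stress-inducible gene linked to DNA demethylation. It read 8.35, 9.0, 9.81 and 9.11 in secondary and 7.55, 7.35 and 7.24 in tertiary gliomas, without overlap. Its difference was -1.68 ± 0.31 (SE, n = 4 and 3; limma adjusted p = 0.0159), and the call was lost on leaving out tertiary glioma 2 (adjusted p = 0.0651) or tertiary glioma 3 (0.0696). The part of the microglial markers, all lower in tertiary gliomas, was not tested.

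The lists without a called gene included the 12 tested genes of trithorax and COMPASS (median 0.33), 20 acetyltransferase genes (0.10), 7 sirtuins (0.20), 19 BAF and PBAF subunits outside the SMARC genes (0.20), 14 subunits of Polycomb repressive complex 1 (0.37) and 13 histone chaperones (0.45). The remaining lists were 7 accessory subunits of Polycomb repressive complex 2 (0.09), 20 other methyltransferases (0.18), 18 corepressor and NuRD subunits (0.09), 20 genes of the ISWI, INO80 and SWR1 complexes (0.22), 15 readers (0.33) and 8 Jumonji demethylases (0.22). The coactivator Ncoa3 (-0.84 ± 0.21, limma adjusted p = 0.0523) and the Polycomb subunit Pcgf5 (1.06 ± 0.26, 0.0545) lay nearest to the threshold.

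Without tertiary glioma 1, 28 partner genes were called higher (15.2%; 5.40% of all genes) and 2 lower (1.09%; 7.44%). They included 6 histone chaperones, among them Chaf1b (1.58 ± 0.26 SE), which places histones on newly copied DNA, and 5 methyltransferases, among them Suv39h2 (1.16 ± 0.20). Uhrf1, which brings Dnmt1 to replicated DNA, stood at 2.16 ± 0.35, and the remodeller Hells, which helps to methylate silent repeats, at 1.53 ± 0.18 (limma adjusted p = 0.00337). Of the Polycomb repressive complex 1 subunits 4 were called higher, Bmi1 (0.74 ± 0.17), Rnf2 (0.78 ± 0.19), Pcgf3 (0.83 ± 0.17) and Pcgf5 (1.21 ± 0.29). Sirt2, a deacetylase of myelinating cells, was lower (-0.89 ± 0.18). Of the mature oligodendrocyte markers 3 of 7 were called lower with all samples kept, whereas Cldn11 read 9.85 and 10.4 in tertiary gliomas 2 and 3 against a secondary mean of 9.62. Their part was not tested.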

How the data were processed

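Values were deposited by the authors on a log2 scale after RMA, per the submitters' processing notes, which name no version. Log base 2 was inferred from the range of values. RMA equalises the arrays (medians 5.57 to 5.64), so 7 arrays, not depth, set the precision. Per the labels' protocols, 30 ng of Trizol-extracted RNA was amplified and labelled with biotin.

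Of 45101 probes, 34945 had 1 gene symbol in the platform annotation and were used. Tertiary gliomas were compared with secondary gliomas by limma 3.58.1 (lmFit and eBayes, R 4.3.3) on 1 probe per gene, above the 25th percentile of probe means, with Benjamini-Hochberg adjustment over 14453 genes. The steps were tested on simulated data. Members, classes and partner lists were chosen with earlier results of these data known. Named genes are called members, the lowest p of each class without one, 9 fixed genes, members with a sample far from its group and up to 3 called genes per partner list; others were chosen after their values were seen. Alternatives were other probe summaries, dim filters, scalings, variance models, array weights, a replicate block, a looser threshold and leaving out each sample. No array duplicated another (at most 5.39% of probes held equal values). Scan dates and batches were not analysed here. Figures used matplotlib 3.10.9 and Python 3.11.15.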

Additional observations from a re-analysis of the deposited data

Results flagged for a closer look

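In each of the 78 members the lowest and highest of the 4 secondary gliomas were checked for a gap to the next sample that took up most of the group's range. This picked out 4 genes, or 5.13%, which is about the share of 1 in 20 that chance gives. Cbx2 read 4.78 in secondary glioma 2, and 5.33 to 5.36 in the others. Cbx6 read 8.63 in secondary glioma 1, and 8.21 to 8.25 in the others. Secondary glioma 3 was low in Hdac6, at 6.38 against 7.15 to 7.19, and in Setd5, at 8.89 against 9.17 to 9.22.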

How the results depend on the processing

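The count of members called lower was 1, and became 0 with the mean of all probes or with variances of each gene alone and 2 at an adjusted p under 0.10; it ranged from 0 to 1 when 1 sample was left out. The count called higher was 0, and became 1 with a dim filter at the 50th percentile, 8 with array weights and 5 at an adjusted p under 0.10, where members called either way made up 8.97% against 11.2% of all genes; it ranged from 0 to 9 when 1 sample was left out, with 9 without tertiary glioma 1. Partner genes called lower numbered 1 in the main comparison and 0 with variances of each gene alone. They numbered 2 with the stricter dim filter, at the looser threshold and with array weights (1.09%; 8.75% of all genes). With 1 sample left out they numbered 0 to 2. Those called higher numbered 0, and became 4 with the mean of all probes, 1 with the stricter dim filter, 1 with quantile normalization, 22 with array weights, 4 at the looser threshold and 0 to 28 with 1 sample left out. The median over the members stayed between 0.15 and 0.22 in all these fits, and every probe tested on its own gave 1 called member.

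Replicate numbers gave no sign of pairing: deviations of same-numbered samples correlated at 0.036, -0.144 and 0.015, and 0 of 6 samples correlated best with their own number. The labels do not say what a number marks, and so few samples cannot settle whether same-numbered samples were paired. With the replicate number as a block, 636 in place of 1066 genes were called, with 1 member lower, 0 members higher, 0 partner genes lower and 0 higher. Gadd45b was at -1.67 there (limma adjusted p = 0.0912).

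Some uncalled genes changed sign, with main values from -0.43 (Smarca2) to 0.47 (Chd5). Tet1 was at 0.30 with the mean of all probes, 0.26 with a probe of the plain kind, 0.027 with median centring and 0.44 with array weights, and ranged from -0.53 to 0.31 with 1 sample left out. Cbx6 was at 0.0071, 0.11 and 0.039 with the mean of all probes, a plain probe and array weights. Hdac7 was at -0.061 and Hdac9 at -0.21 with array weights. With 1 sample left out Cbx6 ranged from -0.26 to 0.041, Chd5 from -0.038 to 0.76, Chd7 from -0.047 to 0.23, Hdac7 from -0.082 to 0.51, Hdac9 from -0.24 to 0.42, Hdac11 from -0.53 to 0.15 and Smarca2 from -0.72 to 0.0076. The cause was not tested in any of these.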
